A study of Mus musculus with 33 samples.

Results

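Tumours from mice that received ESK981 together with an antibody against PD-1, called the combination here, were compared with tumours from vehicle-treated mice, across protein-coding genes. The comparison took 8 combination tumours from 5 mice and 10 vehicle tumours from 5 mice, out of 33 tumours from 20 mice in the series. Members were the genes of protein-coding type, of which 11639 of the 22095 in the table passed a filter on low values and were tested. The series covered 48795 genes of all types.

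All tumours grew from Myc-CaP cells injected under the skin of both flanks of male FVB mice. Myc-CaP is a mouse prostate cancer line derived from a transgenic tumour in which a prostate-directed promoter drives human MYC, and all tumours of the series descend from that 1 line. Mice were randomised at a tumour volume of 50 mm3. Combination mice received ESK981 by mouth at 15 mg/kg on 5 days a week and anti-PD-1 into the peritoneum at 200 µg per mouse 3 times a week. The protocol gives vehicle as the counterpart of ESK981 and an isotype control antibody as the counterpart of anti-PD-1, and the labels call the control group only Vehicle. The groups with 1 agent held 8 tumours from 5 mice for ESK981 and 7 tumours from 5 mice for anti-PD-1. Tumours were taken after 3 weeks, and total RNA was depleted of ribosomal RNA before sequencing. Mice are numbered 1 to 5 within a group and tumours by mouse and flank (L or R), and these numbers pair nothing between groups.

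ESK981 is an oral multi-kinase inhibitor of vascular receptor kinases that also inhibits PIKfyve, the lipid kinase that makes phosphatidylinositol 3,5-bisphosphate on endosomes and lysosomes. Loss of PIKfyve activity swells these compartments and blocks the last steps of autophagy. PD-1 is an inhibitory receptor on activated T cells, and its blockade can raise interferon gamma release, which induces chemokines such as Cxcl9 and Cxcl10 and the antigen presentation machinery. The comparison asks what both treatments together changed in the tumour transcriptome.

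Levels are in FPKM, fragments scaled to the length of the gene's exons and to the size of the library. Differences were taken after a log2 transform of FPKM + 0.5, so for weakly expressed genes they come out smaller than the true change. Tests were made in limma on mouse means with adjustment over all genes tested, and the words rose and fell are kept for genes with an adjusted p under 0.05. Epithelial markers of the line were present in both groups: Krt8 stood at 26.0 ± 20.5 FPKM (SD, n = 5 mice) in vehicle and 18.3 ± 8.60 in combination tumours, Cldn3 at 51.2 ± 6.83 and 42.8 ± 5.41, and Foxa1 at 35.8 ± 8.404 and 41.3 ± 6.18. Of 15 luminal and prostate markers, 8 passed the filter. Tumours are bulk samples, so fewer cells of a type and less RNA per cell cannot be told apart.

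The libraries of the 2 groups differed. Combination tumours had between 1.78e+07 and 2.48e+07 fragments and vehicle tumours between 9.90e+06 and 1.84e+07, a difference of mouse means of 5.60e+06 (exact permutation test, two-sided, p = 0.00794, the smallest that 5 mice against 5 allow, adjusted p = 0.0238 over 3 library measures). The FPKM on ribosomal-RNA-like genes lay between 1.27e+05 and 2.40e+05 in vehicle tumours and between 1.96e+04 and 1.04e+05 in combination tumours other than 5R, which stood at 5.00e+05 (exact permutation p = 0.794). The summed FPKM of the 13 mitochondrially encoded proteins was 2.64e+04 ± 1.78e+04 in vehicle and 1.09e+04 ± 4026 in combination mice (exact permutation p = 0.0476, adjusted p = 0.0714). Of the 10 vehicle tumours, 9 carry 1 sequencing run code in the labels, and vehicle 5R shares the other code with all 23 treated tumours, so run and treatment cannot be told apart for the other vehicle tumours. Vehicle 5R had the fewest fragments and the most mitochondrial RNA.

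With both agents, 22 protein-coding genes fell and 1 rose against vehicle. The calls were 0.198% of the 11639 genes tested, and 1063 genes had an unadjusted p under 0.05, of which 352 were higher and 711 lower. The gene with the smallest adjusted p was Slc39a7, a zinc transporter of the endoplasmic reticulum, and the calls included the metallothionein Mt1, the interferon-inducible Ifi27l2a, the centromere protein Cenpb and the LIM-domain protein Crip1. The gene that rose was Rbm4, which encodes an RNA-binding splicing regulator. The median difference over all protein-coding genes was 0.00.

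The number and split of the calls moved with the scaling. When the tumours were rescaled by median-of-ratios factors, 651 genes were called (5.59%), 280 higher and 371 lower. When they were scaled to the sum of nuclear protein-coding FPKM, 1025 were called, 843 higher and 182 lower. The FPKM as deposited had put 1 of 23 calls on the higher side. All 23 genes were also called under both scalings, in a set of 458 genes of which 280 were higher and 178 lower. With the run code as a term in a fit of single tumours, 3497 genes were called, 3396 of them higher, and the median of all genes moved to 0.55; in that fit vehicle 5R is the only vehicle tumour that shares its run code with treated tumours. Of the 23 genes, 20 kept their sign there and 8 were called. Leaving out 1 mouse at a time gave between 10 and 168 calls, and the highest number came without combination mouse 5, with 138 higher and 30 lower.

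**Figure D1:**
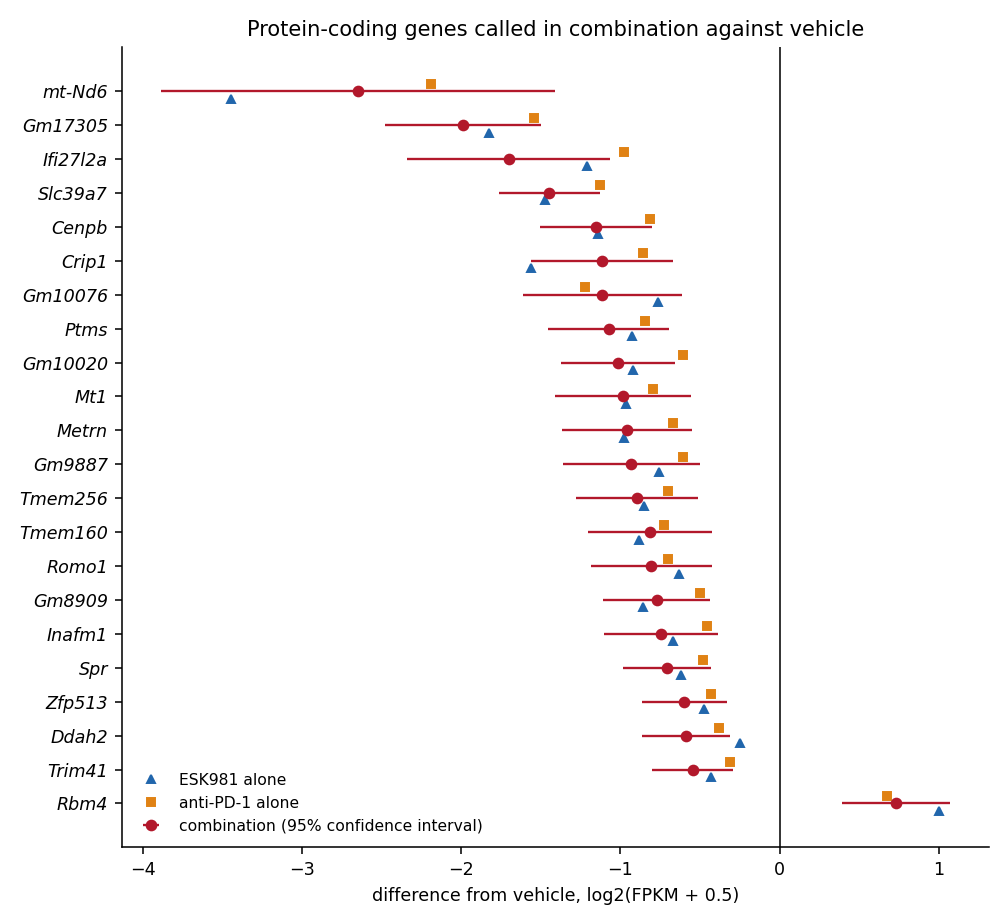
Difference from vehicle on the log2(FPKM + 0.5) scale for 22 of the 23 protein-coding genes called in combination against vehicle, with the combination as circles and 95% confidence intervals, ESK981 alone as triangles and anti-PD-1 alone as squares; the 3 comparisons share the vehicle mice. The 21 genes plotted that fell lie left of 0 in all 3 comparisons and Rbm4 lies right of 0. The genes were chosen by the combination's difference from those mice, and all treated tumours share 1 run code, so like signs are partly built in.

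Of the 23 genes, 18 had no overlap between the mouse means of the 2 groups. Over all genes tested, 8 were without overlap and higher in the combination (0.0687%) and 139 were without overlap and lower (1.19%).

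Zinc handling held 2 of the calls. The list had 13 tested members, transporters that move zinc out of the cytosol (Slc30 family) or into it (Slc39 family), metallothioneins, which bind zinc in the cytosol, and Mtf1, the zinc sensor that induces them. Slc39a7 and Mt1 fell, no member rose, and the list's median was -0.02. With median-of-ratios scaling, which puts the tumours on a common median ratio, 3 members were called lower and 1 higher. All genes were called at 0.198% with the FPKM as deposited and 5.59% with that scaling, and no test compared the list with them. Mt1 and Slc39a7 are shown with the 250 bases before their start in RefSeq on build GRCm38.p6, because they are the called genes of the list. Mt1 lies at chr8:94179082-94180327 on the plus strand, and its stretch at chr8:94178839-94179088. Slc39a7 lies at chr17:34028269-34031682 on the minus strand, and its stretch at chr17:34031691-34031940. Capitals mark matches, on either strand, to the core of the metal response element (TGCGCNC or TGCACNC) and to the core of the hypoxia response element (ACGTG, here on the other strand).
Mt1: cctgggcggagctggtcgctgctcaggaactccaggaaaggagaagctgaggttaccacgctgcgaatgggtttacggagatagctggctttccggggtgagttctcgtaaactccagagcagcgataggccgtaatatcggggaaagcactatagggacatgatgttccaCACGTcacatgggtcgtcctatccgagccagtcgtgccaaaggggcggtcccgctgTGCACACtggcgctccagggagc
Slc39a7: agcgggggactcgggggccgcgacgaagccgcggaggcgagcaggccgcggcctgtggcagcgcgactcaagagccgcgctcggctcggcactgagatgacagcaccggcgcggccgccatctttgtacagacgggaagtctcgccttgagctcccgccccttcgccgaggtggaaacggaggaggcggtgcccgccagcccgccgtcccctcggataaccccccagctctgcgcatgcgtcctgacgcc
The 2 cores occur in 21.4% and 16.6% of the 32851 promoter stretches of the same length in the table, and the Slc39a7 stretch matched neither. The metal response core was not among the motifs planned. Only the 250 bases before the RefSeq start were searched, so matches beyond them are not counted. Among the 15 stretches of 14 genes that fell, 2 held the metal response core (13.3%) and 1 the hypoxia response core (6.67%). Of the 23 called genes, 15 had a stretch in the table.

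Slc39a7 stood at 2.71, 2.93, 3.07, 3.21 and 2.23 FPKM in vehicle mice 1 to 5, and at 0.832, 0.884, 0.750, 0.709 and 0.418 FPKM in combination mice 1 to 5. Every combination mouse lay below every vehicle mouse, and the same held for single tumours, which ran from 1.71 to 3.96 FPKM in vehicle and from 0.418 to 0.973 FPKM in the combination. The difference was -1.45 ± 0.153 (SE; 2.73-fold lower, adjusted p = 3.29e-05, limma), and Slc39a7 was called under all 27 alternative settings with a difference between -1.85 and -0.87. Its exons overlap those of Gm20427 on the same strand, so its fragments could be shared with that gene.

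Mt1 stood at 91.1, 100.6, 100.8, 101.3 and 112 FPKM in vehicle mice and at 56.9, 49.4, 58.2, 62.7 and 31.2 FPKM in combination mice. The combination mice held about the same level but for mouse 5, which was lowest, and the groups did not overlap. The difference was -0.98 ± 0.206 (adjusted p = 0.0241, limma), and it was called in 19 of 27 alternatives. Single tumours did overlap, from 62.0 to 147 FPKM in vehicle and from 31.2 to 79.2 FPKM in the combination. Mt2, the companion metallothionein, stood at 235 ± 28.4 FPKM in vehicle and 136 ± 50.6 FPKM in the combination without passing the test (-0.81 ± 0.239, adjusted p = 0.139). Mtf1 differed by -0.04 ± 0.15 (adjusted p = 0.942), and the zinc exporters Slc30a5 and Slc30a7 by 0.36 and 0.31 (adjusted p = 0.441 and 0.469).

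An interferon-inducible gene and a mitochondrial gene were among the calls. Ifi27l2a, which encodes a small interferon-inducible protein and lies at chr12:103442167-103443680, stood at 5.63, 9.95, 16.2, 5.14 and 19.1 FPKM in vehicle mice and at 1.87, 1.30, 2.0, 2.85 and 1.90 FPKM in combination mice. Vehicle mice varied widely and combination mice little, and the groups did not overlap. The difference was -1.70 ± 0.308 (3.26-fold lower, adjusted p = 0.00855, limma). The value of vehicle mouse 5 came from a tumour at 35.6 FPKM on the right flank and one at 2.70 FPKM on the left, the second of which lay among the combination tumours (1.22 to 3.18 FPKM). Vehicle 3L, at 2.24 FPKM, lay among them too, while its pair 3R stood at 30.05 FPKM. Without vehicle 5R and combination 5R the adjusted p was 0.0497.

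mt-Nd6, a subunit of respiratory complex I and the only protein encoded on the light strand of the mitochondrial genome, stood at 1057, 1997, 2797, 1780 and 6558 FPKM in vehicle mice. In combination mice it stood at 647, 967, 712, 84.8 and 166 FPKM. The groups did not overlap, but vehicle tumours ran from 631 to 10710 FPKM, with 5R highest, and combination tumours reached 1057 FPKM. Its difference of -2.65 ± 0.596 (adjusted p = 0.0413) was called in 13 of 27 alternatives and not without vehicle 5R and combination 5R (adjusted p = 0.0539). Of the 13 mitochondrially encoded genes, 1 fell, none rose and the median was -0.83; mt-Co2 (-1.36, adjusted p = 0.101) and mt-Co1 (-1.15, adjusted p = 0.218) did not pass. mt-Nd6 overlaps mt-Nd5 on the other strand, the strand setting of the counting is not given, and the total mitochondrial FPKM differed between the groups as given above; its part in the result was not tested.

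Cenpb, Crip1 and Ptms were further calls. Cenpb, which binds a short box in centromeric repeats (chr2:131175182-131180067), stood at 12.97, 18.75, 20.6, 15.15 and 16.7 FPKM in vehicle mice and at 7.91, 9.17, 8.76, 6.46 and 4.25 FPKM in combination mice. Every combination mouse lay below every vehicle mouse, and the single tumours did not overlap either (11.9 to 28.0 against 4.25 to 9.77 FPKM). The difference was -1.16 ± 0.169 (2.23-fold lower, adjusted p = 0.00108, limma), called under all 27 alternatives. Slc39a7 was also called in all 27, and Gm17305 in the 26 in which it could be tested. The exons of Cenpb overlap Spef1.

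Crip1, a LIM-domain protein found in epithelial and immune cells (chr12:113146316-113153879), stood at 5.88, 8.72, 8.76, 5.92 and 6.26 FPKM in vehicle mice and at 2.09, 3.76, 5.32, 2.43 and 1.63 FPKM in combination mice. Combination mouse 3 came closest to the vehicle mice, and the groups did not overlap. The difference was -1.11 ± 0.214 (2.17-fold lower, adjusted p = 0.0128, limma); it was called in 25 of 27 alternatives and had an adjusted p of 0.0513 without vehicle 5R and combination 5R. Ptms, which encodes the acidic chromatin-binding protein parathymosin, fell from 74.5 ± 11.9 to 35.0 ± 7.53 FPKM (-1.07 ± 0.184, adjusted p = 0.00517), with combination mouse 5 lowest at 22.5 FPKM.

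Romo1, a small protein of the inner mitochondrial membrane, fell from 29.3 ± 5.54 to 16.8 ± 4.08 FPKM (-0.81, adjusted p = 0.043), and it overlaps Nfs1 on the other strand. Metrn, the secreted factor meteorin, fell from 2.79 ± 0.296 to 1.205 ± 0.376 FPKM (-0.96, adjusted p = 0.0206). Spr, the enzyme sepiapterin reductase of tetrahydrobiopterin synthesis, fell from 3.74 ± 0.437 to 2.09 ± 0.347 FPKM (-0.71, adjusted p = 0.0107), and Tmem256, a small membrane protein, from 7.23 ± 1.57 to 3.74 ± 1.15 FPKM (-0.90, adjusted p = 0.0206). In these 4 genes the mice of the groups did not overlap.

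Further calls are named although they fall outside the rule for named genes and were chosen after their values were seen. Rbm4 (chr19:4784293-4793901, minus strand) stood at 4.73, 3.70, 4.005, 3.10 and 2.90 FPKM in vehicle mice and at 8.12, 6.44, 5.74, 8.17 and 4.08 FPKM in combination mice. Combination mouse 5 lay within the vehicle range and the other 4 lay above it. The difference was 0.73 ± 0.162 (1.66-fold higher, adjusted p = 0.0373, limma), it was called in 15 of 27 alternatives, and its exons overlap Gm21992. Ddah2, an enzyme that breaks down methylated arginine, fell by 0.59, Zfp513, a zinc finger protein, by 0.60 and Trim41, a ubiquitin ligase, by 0.55 on the log2 scale (adjusted p = 0.043, 0.03 and 0.0406). Inafm1 and Tmem160 fell by 0.75 and 0.81 (adjusted p = 0.0483 for each). Zfp513 overlaps Snx17 and Trim41 overlaps Rack1, each on the other strand.

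Another 5 calls carry predicted-gene symbols (Gm17305, Gm10076, Gm10020, Gm9887 and Gm8909), and their levels are uncertain where near-identical copies elsewhere in the genome could share their fragments. Gm17305 fell from 3.75 ± 0.863 to 0.611 ± 0.242 FPKM (-1.99 ± 0.235, adjusted p = 7.32e-05), with no overlap between the mice. Gm10076 fell from 264 ± 43.8 to 127 ± 46.2 FPKM (adjusted p = 0.0321). Gm10020, Gm9887 and Gm8909 had vehicle means of 1.63, 0.896 and 0.501 FPKM, so their differences rest on few fragments.

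**Figure D2:**
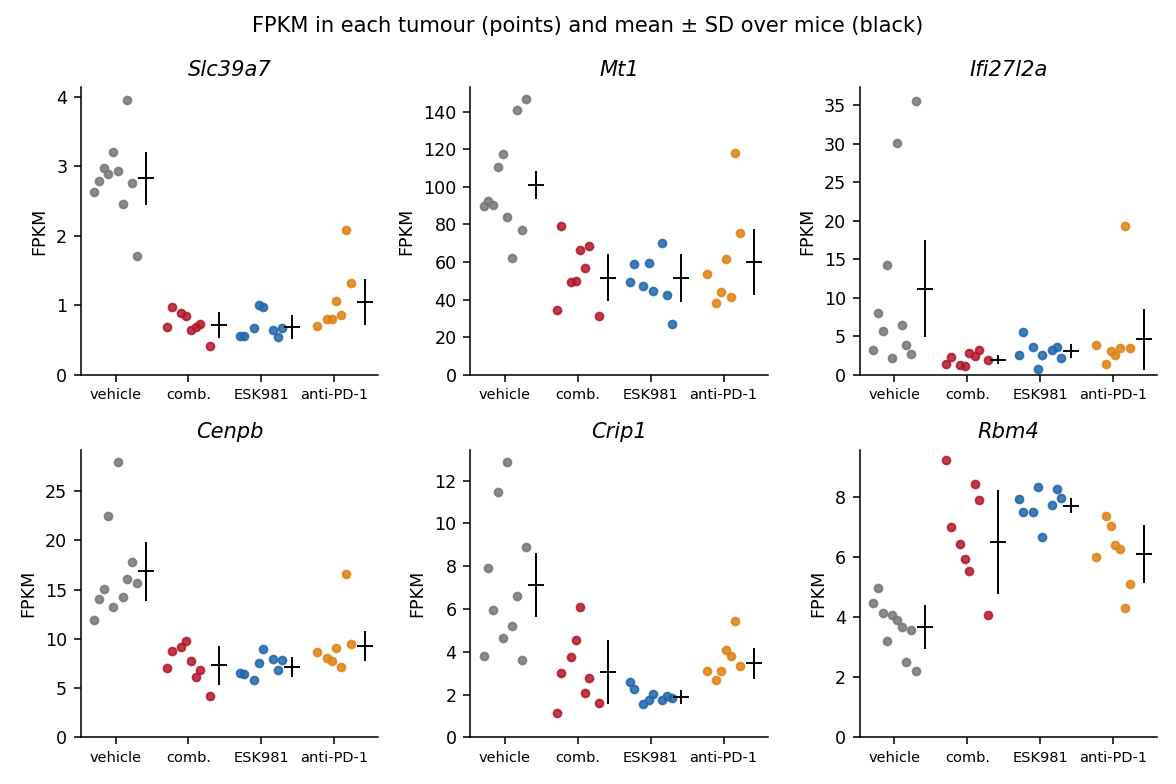
FPKM of 6 called genes in every tumour (points) by group, with the mean and SD over 5 mice in black. Vehicle and combination tumours do not overlap for Slc39a7 (1.71 to 3.96 against 0.418 to 0.973) or Cenpb (11.9 to 28.0 against 4.25 to 9.77), and they overlap for Mt1, Ifi27l2a, Crip1 and Rbm4.

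Vehicle 5R, the 1 vehicle tumour that shares its run code with the treated tumours, lay above all 8 combination tumours for 11 of the 22 genes that fell. These included Slc39a7 (1.71 FPKM), Mt1 (147 FPKM), Ifi27l2a (35.6 FPKM), Cenpb (15.6 FPKM) and Crip1 (8.90 FPKM). For Ptms it stood at 45.1 FPKM, just below the highest combination tumour (45.4). For Rbm4 it stood at 2.21 FPKM, below all of them. Vehicle 5R is part of the mean of vehicle mouse 5 that entered these calls, and the share over all genes tested was not taken. With 1 such tumour this is a description and no check on the run. Anti-PD-1 4R, a treated tumour, had 1.13e+07 fragments and 1.79e+05 FPKM on ribosomal-RNA-like genes, within the vehicle range. It stood above its pair 4L for Slc39a7 (2.08 against 0.857 FPKM), Cenpb (16.6 against 7.19) and Ifi27l2a (19.3 against 3.48). These genes were chosen after their values were seen. The part of such library differences in the calls was not tested.

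Differences followed the GC content and length of the transcripts. In the tenth of genes with the lowest GC content (median 39.8%) the median difference was 0.21, and in the tenth with the highest (median 59.6%) it was -0.24. It ran from -0.15 in the tenth with the shortest transcripts (median 964 bases) to 0.12 in the tenth with the longest (median 8104 bases). The 22 genes that fell had a median length of 1149 bases and a median GC content of 57.9%, over the 21 with a transcript, against 3328 bases and 49.9% for all genes tested. The 280 genes higher under both scalings had medians of 5110 bases and 41.6%. When a smooth trend on length and GC content was taken out of each library, an alternative chosen after seeing the data, 73 of 11620 genes were called, 22 higher and 51 lower, and 13 of the 22 genes that could be tested again were among them. Slc39a7, Cenpb, Crip1, Mt1, Ifi27l2a and Rbm4 were called under both scalings, with the trend removed and with the run term.

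**Figure D3:**
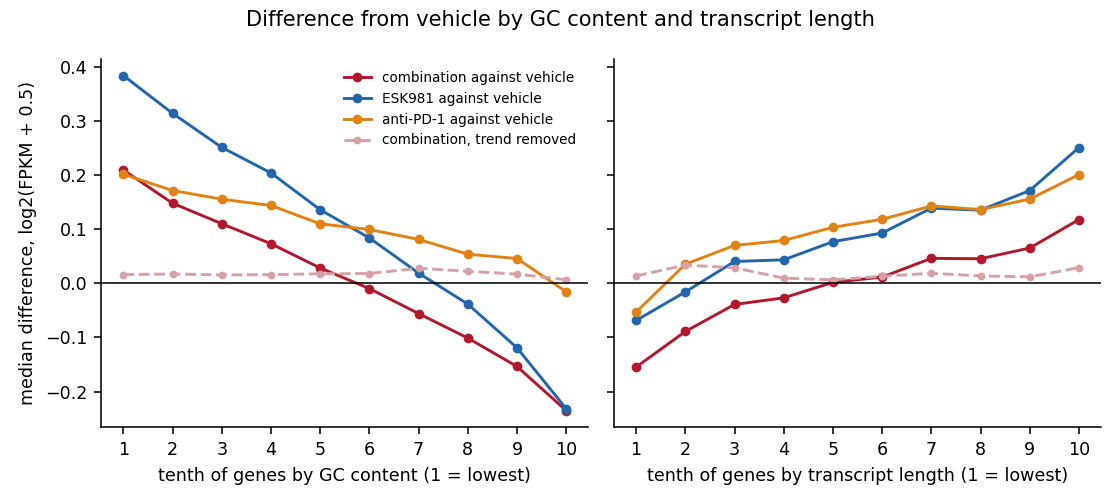
Median difference from vehicle on the log2(FPKM + 0.5) scale in 10 equal groups of genes by GC content (left) and transcript length (right), for the combination, ESK981 alone and anti-PD-1 alone, which share the vehicle mice. The combination runs from 0.21 to -0.24 across GC content and from -0.15 to 0.12 across length. The dashed line shows the combination after removal of the trend. It lies near 0 by construction, because the trend was fitted on the same length and GC content.

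Members of the immune gene lists did not pass the test with the FPKM as deposited; Ifi27l2a, given above, is in none of them. Over 51 gene lists, 638 genes were tested and 3 were called, mt-Nd6, Slc39a7 and Mt1, so no member of an immune list was called. The lists and their medians are descriptions beside a median of 0.00 for all protein-coding genes. The 20 genes of the interferon gamma response had a median of -0.42, with 19 below 0, and the 11 of MHC class I presentation -0.65, with 10 below 0. The 9 of MHC class II presentation had a median of -0.42, all below 0, the 14 macrophage genes -0.33 and the 13 complement genes -0.39. The 21 genes of the type I interferon response had a median of -0.04, the 8 T cell genes -0.17 and the 8 genes of CD8 T cells and cytotoxic effectors -0.14. With the run term the medians of the interferon gamma and MHC class I lists turned to 1.33 and 0.53, beside 0.55 for all genes.

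In the presentation pathway, Psmb8 and Psmb9, the interferon-inducible subunits of the immunoproteasome, stood low. Psmb8 was at 19.9, 21.8, 29.2, 32.6 and 13.5 FPKM in vehicle mice and at 10.5, 13.8, 22.2, 12.7 and 4.88 FPKM in combination mice. Combination mice 2 and 3 lay within the vehicle range and the other 3 below it, and the difference of -0.96 ± 0.326 did not pass (adjusted p = 0.219, and 0.037 with median-of-ratios scaling). Psmb9 differed by -1.03 ± 0.391 (adjusted p = 0.285), the peptide transporter Tap1 by -0.69 (adjusted p = 0.434) and the class I heavy chain H2-D1, at 262 ± 68.4 and 184 ± 93.0 FPKM, by -0.65 (adjusted p = 0.371). Bst2, the type I interferon-induced tetherin, differed by -0.78 ± 0.232 (adjusted p = 0.143). Psmb8, Psmb9, H2-D1 and Bst2 were chosen after their values were seen, as were the other genes named below from lists.

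The chemokines that recruit T cells did not pass the test. Cxcl9 stood at 18.2, 14.7, 16.8, 16.1 and 5.10 FPKM in vehicle mice and at 7.18, 11.8, 28.3, 11.9 and 5.90 FPKM in combination mice. The mice of both groups spanned overlapping ranges, and the difference of -0.18 had a 95% confidence interval from -0.97 to 0.62 (adjusted p = 0.879, limma). Cxcl10 was at 2.28 ± 1.55 FPKM in vehicle and 1.91 ± 1.14 FPKM in the combination (-0.12, adjusted p = 0.919).

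T cell and effector genes were low in both groups. Cd3e, a chain of the T cell receptor complex, stood at 1.36, 1.67, 1.59, 1.27 and 0.760 FPKM in vehicle mice and at 0.804, 1.90, 2.53, 1.01 and 0.431 FPKM in combination mice. Combination mice lay both above and below the vehicle range, and the interval of the difference ran from -0.57 to 0.54 (adjusted p = 0.987). Cd8a differed by 0.02 (interval -0.46 to 0.50), the cytotoxic protease Gzmb by 0.00 (-0.66 to 0.67), Ifng by -0.11 (-0.74 to 0.52) and Pdcd1, which encodes PD-1, by -0.06 (-0.60 to 0.47). Cd274, which encodes the ligand PD-L1, stood at 9.65 ± 4.23 and 8.76 ± 5.93 FPKM and differed by -0.26 (-1.07 to 0.55, adjusted p = 0.813). The intervals of Cd274 and Cxcl9 were the widest of these. With the run term, whose value rests on vehicle 5R, Cxcl9, Cd3e and Pdcd1 turned to 1.95, 1.56 and 1.33 and were called (adjusted p = 0.0377, 0.0481 and 0.0487, limma), and Cxcl10, Ifng and Cd274 turned to 1.62, 1.22 and 1.14 without passing.

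The combination tumours spread widely among themselves in interferon genes. The median over the interferon gamma list, taken per tumour relative to the vehicle mean, was -1.86 in combination 1L, 0.01 in 1R, 0.21 in 2R, 0.72 in 3L, 0.53 in 3R, -0.46 in 4L, -0.40 in 4R and -1.51 in 5R. Tumours 1L and 5R were far below the other combination tumours, and 3L and 3R highest. Among vehicle tumours it was -1.83 in 5R and between -0.57 and 0.61 in the other 9. These values were not rescaled between libraries. The median-of-ratios factor was 0.648 in combination 5R and 0.597 in vehicle 5R, against 1.065 in combination 1L. The typical gene was thus also low in both 5R tumours, but not in 1L. The SD over combination mice had a median of 0.896 over this list, against 0.712 over vehicle mice, 0.402 with ESK981 and 0.398 with anti-PD-1, and over all genes 0.330 and 0.238 in combination and vehicle mice.

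Flanks of 1 mouse differed in both groups. On the interferon gamma list the gap was widest in combination mouse 1, and over all genes in vehicle mouse 5 (median size 0.467). In combination mouse 1 all 20 interferon gamma genes were lower in the left tumour than in the right, by a median of 1.92 on the log2 scale. The median size of its flank difference over all genes was 0.263. Cxcl9 stood at 4.19 FPKM in 1L and 10.2 FPKM in 1R, Gzmb at 0.118 and 2.85 FPKM, and Ifng was listed at 0 in 1L and stood at 1.35 FPKM in 1R. All 24 proliferation genes were higher in the left tumour, by a median of 0.99, and Mki67 stood at 35.5 FPKM in 1L and 16.8 FPKM in 1R. In combination mice 3 and 4 the interferon gamma list differed between flanks by a median size of 0.187 and 0.120. In vehicle mouse 1, 19 of the 20 interferon gamma genes were lower in the left tumour, by a median of 0.862, and all 24 proliferation genes were higher there, by 0.638. In vehicle mouse 4, 18 of the 20 were higher in the left tumour, by 0.587, and 23 of the 24 proliferation genes were lower there, by 0.372. In vehicle mouse 5 all 20 interferon gamma genes were lower in the right tumour, by 1.28, and vehicle 5R also differs from 5L in run code. There the 24 proliferation genes went the same way as the interferon genes, all lower in the right tumour, by 0.773. Most genes went the same way in that mouse. Of all 11639 genes, 10004 were lower in 5R than in 5L, and the median difference over all genes was 0.432.

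**Figure D4:**
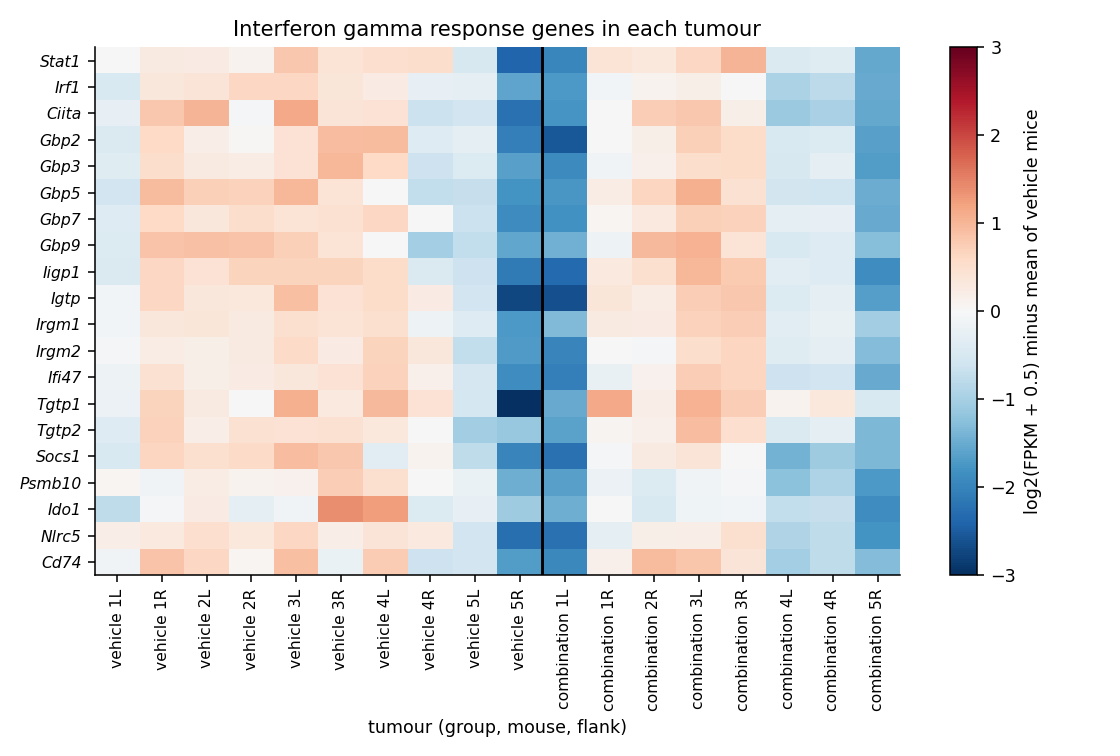
Level of the 20 interferon gamma response genes in each vehicle and combination tumour, as log2(FPKM + 0.5) minus the mean of the vehicle mice (blue lower, red higher). Combination tumours 1L and 5R and vehicle tumour 5R are blue for all 20 genes, with list medians of -1.86, -1.51 and -1.83, while combination 3L and 3R are mostly red. Levels are not rescaled between libraries, and the typical gene is also low in both 5R tumours.

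No gene of alternatively activated macrophages was called. Retnla, a secreted protein induced by interleukin 4, was at 2.65, 11.2, 1.22, 6.67 and 15.9 FPKM in vehicle mice and at 0.902, 1.64, 0.490, 0.0385 and 0.259 FPKM in combination mice. Only vehicle mouse 3 overlapped the combination range, and the difference of -2.28 ± 0.573 did not pass (adjusted p = 0.0734, and 0.0349 with median-of-ratios scaling). Of the 6 tested genes of this list, 5 were below 0, with a median of -0.73, among them Clec10a (-0.99, adjusted p = 0.298) and Arg1 (-0.58, adjusted p = 0.306). The complement gene C4b differed by -1.20 ± 0.394 (adjusted p = 0.196) and the collagen genes Col1a1 and Col6a1 by -1.05 and -1.08 (adjusted p = 0.313 and 0.177). Skeletal muscle genes, a sign of host tissue in the sample, had a median of -0.47 with all 10 below 0 and none called, and their summed FPKM ran from 8.11 to 243 in vehicle tumours and from 5.94 to 106 in combination tumours. Their part in the stromal values was not tested.

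No endothelial gene passed the test with the FPKM as deposited. Of the 12 endothelial genes tested, 9 were above 0, the median was 0.20 and none was called. Cdh5, the cadherin of endothelial junctions, stood at 1.80, 1.07, 0.944, 1.44 and 0.561 FPKM in vehicle mice and at 2.10, 2.70, 2.42, 3.16 and 0.921 FPKM in combination mice. Combination mice 1 to 4 lay above all vehicle mice and mouse 5 among them, and the difference of 0.75 ± 0.258 did not pass (adjusted p = 0.224, and 0.0361 with median-of-ratios scaling). Kdr, the VEGF receptor that ESK981 targets, stood at 0.773 ± 0.343 and 0.983 ± 0.269 FPKM (0.26, interval -0.13 to 0.65, adjusted p = 0.588), and Pecam1 at 1.59 ± 0.561 and 1.89 ± 0.796 FPKM (0.21, adjusted p = 0.762). The transcription factor Erg went the other way, at 0.748 ± 0.427 and 0.342 ± 0.102 FPKM, without passing the test (-0.47, adjusted p = 0.336). With the run term Kdr and Pecam1 came to 1.46 and 1.87 and were called (adjusted p = 0.0063 and 0.00597, limma). Vehicle 5R had the lowest median of this list among the 18 tumours, at -1.18, and the typical gene was also low there (median-of-ratios factor 0.597).

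Pikfyve and the autophagy and lysosome genes did not pass the test with the FPKM as deposited. Pikfyve stood at 2.59, 2.52, 2.32, 2.02 and 1.39 FPKM in vehicle mice and at 2.86, 2.99, 3.14, 2.85 and 1.37 FPKM in combination mice. Combination mice 1 to 4 lay above all vehicle mice and mouse 5 below them, and the difference was 0.23 (interval -0.13 to 0.59, adjusted p = 0.615). With the run term it was 0.998 and called (adjusted p = 0.0106, limma). The 12 genes of the PIKfyve complex and endosomal lipid kinases had a median of 0.05, led by Pik3c2a, a class II phosphatidylinositol 3-kinase (0.38, adjusted p = 0.32). The 30 autophagy genes had a median of 0.04 and the 33 lysosomal genes -0.04, and none was called.

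Among autophagy genes, Map1lc3a, a member of the LC3 family that coats autophagosomes, was lowest. It stood at 7.71, 7.05, 6.18, 7.497 and 5.05 FPKM in vehicle mice and at 4.82, 4.07, 5.21, 4.77 and 3.36 FPKM in combination mice. The groups overlapped only through vehicle mouse 5 and combination mouse 3, and the difference of -0.54 ± 0.153 did not pass (adjusted p = 0.119, and 0.0101 with median-of-ratios scaling). Its relative Map1lc3b differed by 0.07 (adjusted p = 0.885), and the autophagy receptor Sqstm1 stood at 41.2 ± 7.74 and 34.7 ± 7.62 FPKM (-0.25, adjusted p = 0.522). Gpnmb, a glycoprotein that rises under lysosomal stress, stood at 18.8 ± 5.57 and 17.9 ± 7.90 FPKM (-0.07, adjusted p = 0.941).

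The immediate early, histone and glycolysis lists lay wholly below 0. All 13 immediate early genes, which cells switch on within minutes of a stimulus or of tissue handling, were below 0, with a median of -0.45. Of these, 9 had an unadjusted p under 0.05 (limma) and none was called. Over all 11639 genes tested, 1063 had an unadjusted p under 0.05, 711 of them lower. Dusp1, a phosphatase of MAP kinases, was at 6.23, 9.54, 4.35, 7.35 and 5.72 FPKM in vehicle mice and at 3.46, 4.75, 4.16, 4.08 and 3.63 FPKM in combination mice. Only vehicle mouse 3 lay within the combination range, and the difference of -0.60 ± 0.164 did not pass (adjusted p = 0.103); Fos differed by -0.94 ± 0.273 (adjusted p = 0.131). All 18 replication-dependent histone genes were below 0 as well, with a median of -0.59, and these have near-identical copies. The 17 glycolysis genes were all below 0, by a median of -0.24 that was -0.02 without vehicle 5R and combination 5R.

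The 24 proliferation genes had a median of -0.10 and none was called. Mki67 stood at 17.7 ± 3.18 and 18.8 ± 5.70 FPKM (0.06, interval -0.87 to 0.99). Endogenous Myc stood at 6.37, 6.59, 5.16, 11.1 and 5.76 FPKM in vehicle mice and at 5.07, 4.52, 4.15, 5.81 and 2.93 FPKM in combination mice. The ranges overlapped between 5.16 and 5.81 FPKM, and the difference of -0.54 ± 0.209 did not pass (adjusted p = 0.296). How fragments of the human MYC transgene were counted is not given in the sources used here. The 25 nuclear genes of oxidative phosphorylation had a median of -0.06, the 23 of cholesterol synthesis 0.18 and the 22 of MYC-driven ribosome biogenesis 0.04, with none called.

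The single agents gave related values for the 23 genes, and these comparisons share the vehicle mice with the combination. ESK981 alone called 1564 genes against vehicle (13.4%), 889 higher and 675 lower, and 22 of the 23 were among them, all but Ddah2. Anti-PD-1 alone called 12 genes (0.103%), 6 in each direction, and 5 of the 23 were among them. All 23 had the same sign in each. They were chosen by their difference from these same vehicle mice, and all treated tumours share a run code that most vehicle tumours lack. Like signs are therefore partly built in, and their share over all genes was not taken. Slc39a7 differed from vehicle by -1.47 with ESK981, -1.13 with anti-PD-1 and -1.45 with both, Cenpb by -1.14, -0.81 and -1.16, and Mt1 by -0.96, -0.79 and -0.98. Of the 23, 21 had a 95% interval of the combination against ESK981 that held 0, and 21 against anti-PD-1.

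Set directly against the single agents, the combination had 0 called genes (0% of 11639 in each comparison, limma). Against ESK981, 983 genes had an unadjusted p under 0.05, 454 higher and 529 lower, and against anti-PD-1 424 did, 2 higher and 422 lower. The median of all genes was -0.10 in each. The interferon gamma list had a median of 1.16 against ESK981 and -0.06 against anti-PD-1, and the MHC class II list 1.12 and -0.32. Against vehicle, ESK981 alone had a median of -1.55 on the interferon gamma list, beside -0.42 for the combination. Gzmb stood at 0.315 ± 0.167 FPKM with ESK981 and 2.15 ± 1.44 FPKM with both agents (1.48, adjusted p = 0.325), and Cd274 at 1.93 ± 0.686 and 8.76 ± 5.93 FPKM (1.66, adjusted p = 0.325).

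Whether those immune differences from ESK981 passed the test depended on the libraries used. With all tumours Gzmb differed by 1.48 and Cd274 by 1.66 without passing. Without vehicle 5R and combination 5R, 27 genes were called in the combination against ESK981, all of them higher. They included Ccl5, a T cell chemokine (2.34, adjusted p = 0.0387), Cd274 (1.996, adjusted p = 0.0382), Gzmb (1.72, adjusted p = 0.0419), the pore-forming Prf1 (1.56, adjusted p = 0.0337) and the T cell receptor chain Cd3g (1.26, adjusted p = 0.0337). Combination mouse 5 has 1 tumour, so this setting leaves 4 combination mice. Leaving out mouse 5 in the fit that kept vehicle 5R gave 0 calls. Vehicle 5R is in neither group and enters this comparison only through the estimate of the spread that all groups share. Against anti-PD-1, leaving out anti-PD-1 mouse 5 gave 5 calls, all lower, among them the matrix protein Thbs4 (-2.08, adjusted p = 0.037) and the ubiquitin ligase Neurl1a (-0.93, adjusted p = 0.037).

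**Figure D5:**
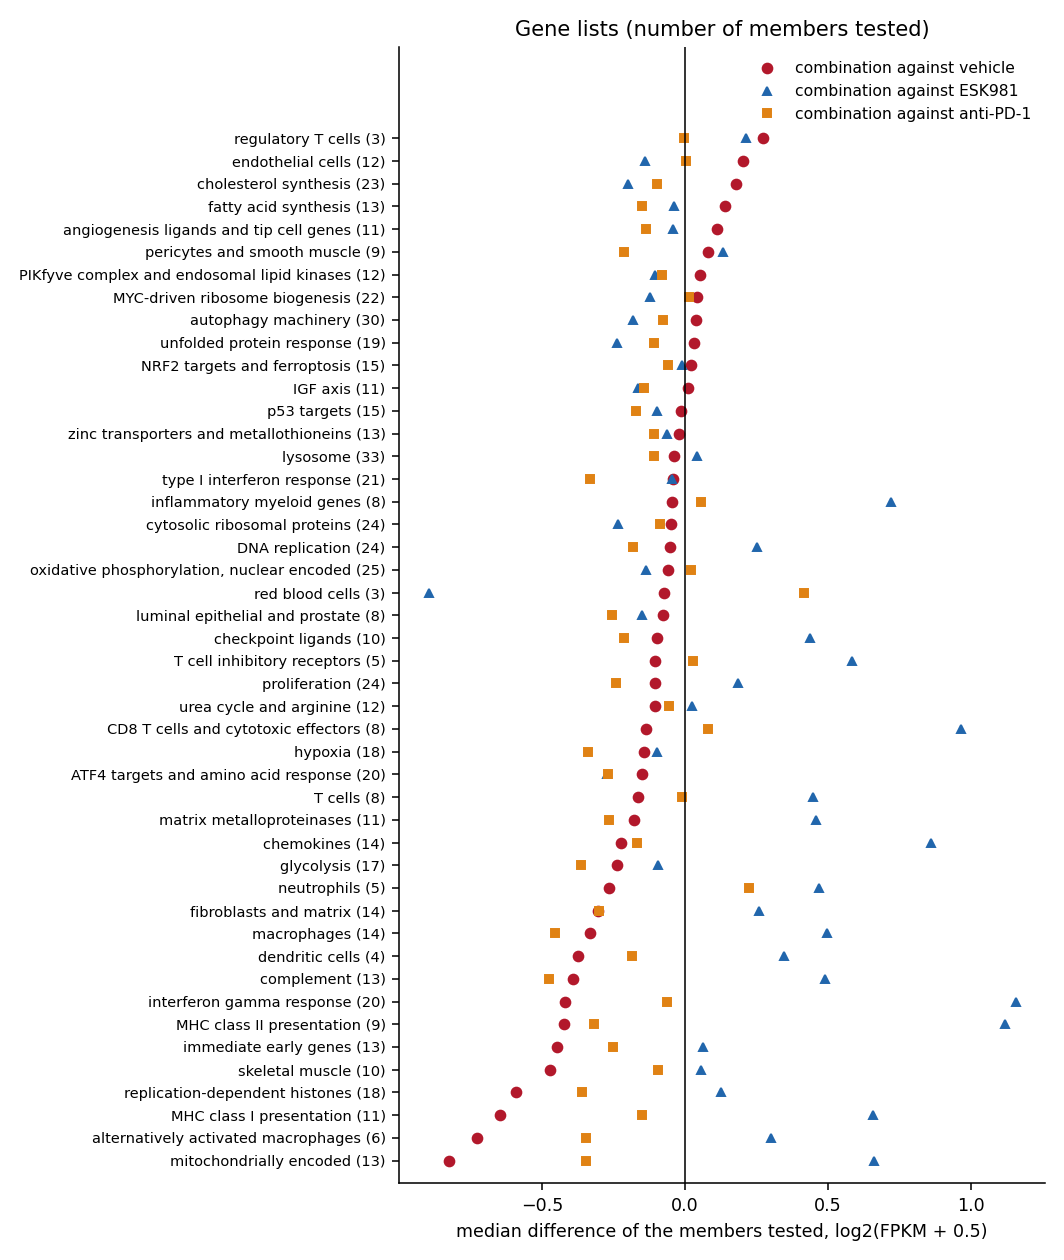
Median difference of the tested members of each gene list with at least 3 of them, on the log2(FPKM + 0.5) scale, for the combination against vehicle (circles), ESK981 (triangles) and anti-PD-1 (squares), ordered by the first. The interferon gamma list lies at -0.42, 1.16 and -0.06 and the mitochondrially encoded list lowest against vehicle at -0.83.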

How the data were processed

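RNA of 33 tumours was sequenced and deposited as 1 table of FPKM. The authors aligned reads with STAR and counted them with featureCounts on mm10, per the submitters' processing notes; their versions, the annotation and the strand setting were not given in the sources used here. The deposited FPKM were used as they stand. Fragment totals per tumour were recovered from the spacing of low FPKM values, which were whole multiples of 1 fragment within 0.01 in 100% of values checked.

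Genes with at least 0.5 FPKM in at least 5 of 33 tumours were kept (15846, of which 11639 protein-coding). log2(FPKM + 0.5) was averaged over the tumours of a mouse, taken from the ear tag, and the 4 groups of 5 mice were fitted together in limma 3.58.1 (R 4.3.3) with a mean-variance trend, adjusted by Benjamini-Hochberg over all 15846 genes. The FPKM given for a mouse is the mean over its tumours. Scripts were tested on simulated data. The comparison and the gene lists were chosen with earlier results of these data known. The genes named were the called protein-coding genes whose mice did not overlap, whose higher group reached a log2 level of 1 and whose symbol is not a clone name, up to 12 in each direction; up to 3 called genes of each list; up to 5 called genes of each sign against each single agent; and 16 genes named whatever their result. The other genes named were chosen after their values were seen. Of the 23 called genes, 1 is counted but not reported here. Lists are described by counts and medians, without a set test. Coordinates are those of GENCODE M21 on GRCm38, and 21929 of 22095 protein-coding IDs matched it. Library measures were compared by exact permutation tests over 5 mice a group. Another 25 settings of the analysis, and 2 chosen after seeing the data, were run for comparison: other pseudocounts, filters, scalings, models and sets of tumours.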

Additional observations from a re-analysis of the deposited data

Results flagged for a closer look

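Among 86 groups of 5 mice, 8 had a mouse that stood apart from the other 4 by Dixon's test, whose critical value for 5 values is 0.71; chance alone gives about 1 in 20 groups. Of these, 5 were combination mouse 5, which has 1 tumour (5R). On the log2(FPKM + 0.5) scale it was at -0.51 for Gm17305 (others 0.15 to 0.27), at 4.52 for Ptms (others 5.18 to 5.43), at 0.0366 for Kdr (others 0.55 to 0.76) and at 0.90 for Pikfyve (others 1.74 to 1.86). Its FPKM on ribosomal-RNA-like genes was 5.00e+05 (others 2.01e+04 to 1.04e+05). The median-of-ratios factor of combination 5R was 0.648, against 1.022 to 1.126 in the other combination tumours. The typical gene was thus low in this library, and the genes flagged in it are not independent cases. The other 3 flagged groups were vehicle mouse 5, whose right tumour carries the run code of the treated tumours and had a factor of 0.597. It was at 2.78 for Trim41 (others 3.11 to 3.22), at 2.27 for Cxcl9 (others 3.92 to 4.20) and at -0.28 for Pdcd1 (others 0.45 to 0.73).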

How the results depend on the processing

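Against vehicle, the 23 calls (1 higher, 22 lower) became 13 without the filter on low values (0 higher, 13 lower), 14 with the mice of the 2 groups alone (13 lower) and 9 with only protein-coding genes fitted (0 higher, 9 lower). They became 59 with single tumours (9 higher, 50 lower), 3497 with the run code added (3396 higher, 101 lower) and 4 with right-flank tumours alone (0 higher, 4 lower). Median-of-ratios scaling gave 651 (280 higher, 371 lower), scaling to nuclear protein-coding FPKM 1025 (843 higher, 182 lower), and removal of the length and GC content trend 73 (22 higher, 51 lower). Leaving out vehicle 5R gave 42 calls (41 lower), leaving out both 5R tumours 261 (206 higher, 55 lower), and median-of-ratios scaling without combination mouse 5 gave 367 (164 higher, 203 lower). Leaving out 1 mouse at a time gave 10 to 168 calls, 0 to 138 higher and 10 to 38 lower; the count was 10, 14 and 15 without vehicle mouse 2, 3 and 4, and 15, 38, 13 and 168 without combination mouse 1, 2, 4 and 5. Against ESK981, 27 genes were called without both 5R tumours, and against anti-PD-1, 5 without anti-PD-1 mouse 5; the other alternatives gave 0. The cause of these moves was not tested.

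With the run code as a term, the sign turned for 11 of the named or called genes. Of these, Cxcl9 (1.95), Cd3e (1.56) and Pdcd1 (1.33) came out called higher, the called genes Romo1 (0.0201), Zfp513 (0.0308) and Trim41 (0.0319) lost their call, and Cxcl10 (1.62), Ifng (1.22), Cd274 (1.14), Sqstm1 (0.0538) and Gpnmb (0.098) were not called either way. Kdr, Pecam1 and Pikfyve kept their sign and came out called higher (1.46, 1.87 and 1.0). Over the named or called genes and all alternatives, 808 values kept sign and side of the threshold, 171 kept their sign but lost the call, and 60 of genes not called either way turned sign. No paired analysis was possible because the replicate numbers of different groups belong to different mice and only name them. Where depth was lowest, in vehicle 5R, 1 fragment is worth most, so its low values are the least precise.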

Other observations

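Genes called under both scalings but not with the FPKM as deposited are given here as values, chosen after they were seen. Among those lower, Dpt, which encodes the matrix protein dermatopontin, stood at 4.65 ± 4.19 FPKM in vehicle and 0.721 ± 0.633 FPKM in combination mice (-1.72 with median-of-ratios scaling, adjusted p = 0.0441, limma), and Clec3b, which encodes tetranectin, at 4.90 ± 6.72 and 0.411 ± 0.315 FPKM (-1.86, adjusted p = 0.040). Of the 14 tested members of the fibroblast and matrix list, 0 were called under either scaling (limma), and 4 had an unadjusted p under 0.05 with the FPKM as deposited. The latter held for 1063 of all 11639 genes tested. S100a4, a calcium-binding protein of motile and stromal cells, stood at 5.67 ± 2.15 and 1.93 ± 0.644 FPKM (-1.25, adjusted p = 0.0222). Folr2, a folate receptor of resident macrophages, stood at 2.56 ± 0.667 and 1.09 ± 0.502 FPKM (-0.91, adjusted p = 0.0391). The transcription factor Atf5 stood at 31.8 ± 7.90 and 17.6 ± 4.60 FPKM (-0.84, adjusted p = 0.00943).

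Among those higher were the lysosomal membrane protein Tmem106b, at 19.8 ± 3.64 and 31.0 ± 8.46 FPKM (0.61, adjusted p = 0.0249), and the lysosomal acid ceramidase Asah1, at 21.98 ± 2.99 and 31.9 ± 8.31 FPKM (0.47, adjusted p = 0.033). The splicing repressor Ptbp2 stood at 4.77 ± 0.816 and 7.45 ± 2.02 FPKM (0.55, adjusted p = 0.0222), and the lipid transfer protein Vps13a at 6.92 ± 1.57 and 10.2 ± 2.46 FPKM (0.51, adjusted p = 0.00483).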
